A study of Mus musculus with 7 samples.

Results

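The genes described here are the receptors and ligands of the epidermal growth factor (EGF) family, the receptor inhibitor Lrig1, and Kitl, the ligand of the receptor Kit. They are 10 genes, taken by symbol from the 46671 genes of the deposited table: Egfr, Erbb2, Erbb3, Areg, Ereg, Btc, Hbegf, Tgfa, Lrig1 and Kitl. All 10 reached the mean of 0.5 FPKM (fragments per kilobase of gene length, scaled for sequencing depth) required for testing, as did 13057 genes in all. RNA had been sequenced from intestinal epithelium of BALB/C mice aged 8 weeks and kept free of specific pathogens. The 3 control samples (Ctrl) are of genotype WT, and the 4 samples called cKO are of genotype MST3 knockout, with the kinase gene Stk24 (MST3) deleted in intestinal epithelial cells. The promoter that drove the deletion is not given in the sources used here. Both groups carry a treatment label that says no drug was given, whereas the description of the design names azoxymethane and dextran sulfate sodium (AOM&DSS). Whether the libraries are from separate mice is not stated, so each p-value given measures only the spread between the libraries.

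The series concerns MST3 and the transcriptional co-activator YAP, and Areg is a well-known target of YAP, which gives the question asked of these genes: whether their levels differed between the genotypes. The members were chosen by gene family, with the FPKM values of these 7 libraries and their differences between cKO and Ctrl already known. Those differences are therefore given as descriptions. The adjusted p is given only to say whether a gene passed the rule for a call, which was a limma adjusted p under 0.05 over all 13057 genes.

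ErbB receptors are tyrosine kinases of the cell surface that work as pairs. Egfr binds EGF, Areg, Ereg, Btc, Hbegf and Tgfa. Erbb2 binds no known ligand and acts as a partner, and Erbb3 binds neuregulins and signals mainly through a partner because its own kinase is weak. The ligands are made as membrane-bound precursors and are released by metalloproteases, and the signal passes through RAS, the MAP kinases and PI3 kinase. In the intestine this pathway drives the division of crypt cells, and Lrig1 marks crypt base cells and restrains the receptors. Kit ligand acts on another receptor tyrosine kinase, Kit, which is carried by mast cells, by interstitial cells of Cajal and by some secretory cells of the crypt.

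Stk24 was lower in the samples labelled cKO, at 19.4, 19.4 and 21 FPKM in Ctrl replicates 1 to 3 and 2.92, 3.04, 3.85 and 3.53 FPKM in cKO replicates 1 to 4. Reads assigned to genes numbered 14659708 to 19659622 per library, and 3 reads of a gene 1 kb long correspond to between 0.155 and 0.216 FPKM. The samples are labelled colorectum, but markers of small intestine were abundant and defining markers of large intestine were not. Sis, the brush border sucrase-isomaltase, lay between 413 and 823 FPKM, Car1 had between 0 and 2 reads in a library, and Hoxb13 had between 0 and 7. The share of mitochondrial reads lay between 3.88% and 5.32% in Ctrl and between 3.71% and 7.51% in cKO, highest in cKO replicates 3 and 4. The summed level of the Paneth cell markers ranged from 10243 to 30944 FPKM in Ctrl and from 5553 to 21674 FPKM in cKO, and in cKO replicates 3 and 4 it was below that of every other library.

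No member passed the call rule. Of the 10 members 0 were called, against 0.0306% of all genes tested, which is 4 genes, all lower in cKO. Of all genes tested, 1171 (8.97%) had an unadjusted p under 0.05, as did 1 of the 10 members, Kitl. Kitl was also the 1 member whose libraries did not overlap between the groups, being higher in every cKO library than in every Ctrl library, a pattern seen in 5.62% of all genes tested. The groups of 4.51% of genes did not overlap in the other direction, which makes 10.1% in either. On the scale log2(FPKM + 0.5), which understates differences of low genes, the difference cKO minus Ctrl was above 0 in 7 of the 10 members, against 48.7% of all genes tested. The median over the members was 0.14, and the median over all genes tested was -0.0077. In bulk samples, fewer cells of a type and less RNA per cell cannot be told apart, which holds for every level given here.

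**Figure D1:**
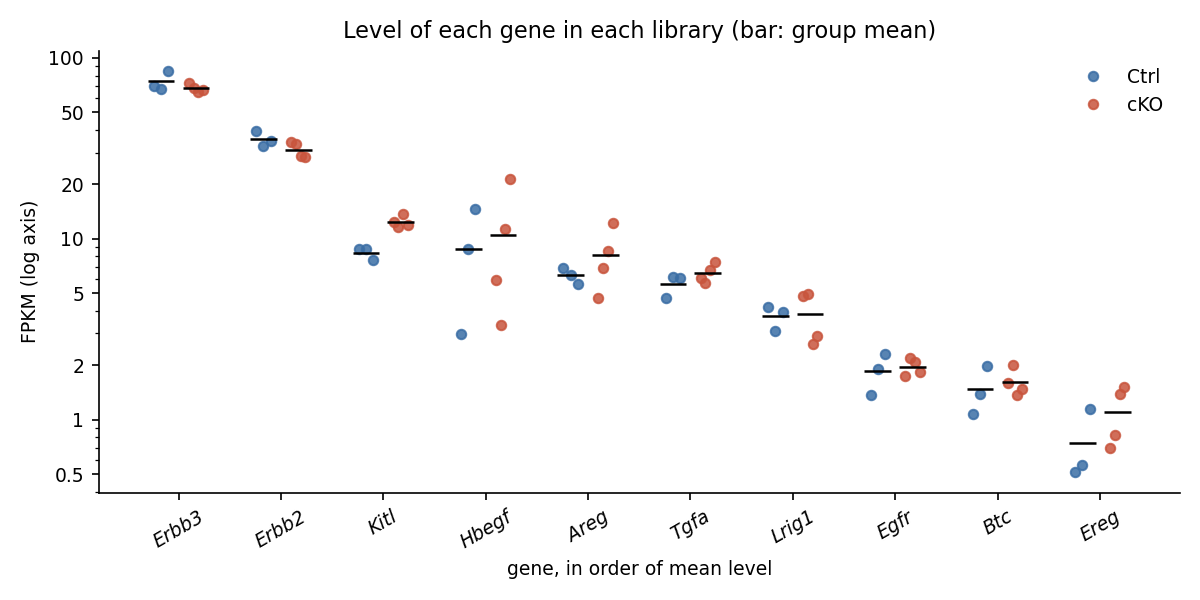
Level of each of the 10 genes in each library (points, FPKM on a log axis) for Ctrl (3 libraries) and cKO (4 libraries), with the mean of each group as a short line. Kitl separates the groups, from 7.63 to 8.78 FPKM in Ctrl and from 11.6 to 13.8 FPKM in cKO, and for each of the other 9 genes the groups overlap.

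The receptors differed among themselves far more than between the genotypes. Erbb3 was the most abundant of the 10 genes, at 70.0, 67.7 and 84.9 FPKM in Ctrl and 72.7, 68.3, 65.3 and 66.4 FPKM in cKO. Ctrl replicate 3 lies above the other libraries, which are close together, so the groups overlap. The mean was 74.2 ± 9.37 FPKM (SD, n = 3) in Ctrl and 68.2 ± 3.30 FPKM (SD, n = 4) in cKO, a log2 difference of -0.11 (SE 0.12, limma adjusted p = 0.796). Erbb3 (gene ID 13867) lies on the minus strand of chromosome 10, from 128403392 to 128425504 in GRCm39, the build of the deposited table. It rested on between 5540 and 8246 reads in a library.

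Erbb2, the partner receptor, stood at 39.2, 32.6 and 34.6 FPKM in Ctrl and 34.1, 33.4, 28.8 and 28.4 FPKM in cKO. The 2 lowest values were those of cKO replicates 3 and 4, and cKO replicates 1 and 2 lay within the range of Ctrl. The log2 difference was -0.18 (SE 0.12, 95% interval from -0.46 to 0.092, limma adjusted p = 0.676), and it was 0.0095 after the trend with GC content had been removed from each library. Erbb2 (gene ID 13866) lies on the plus strand of chromosome 11, from 98303310 to 98328542.

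Egfr itself was low. It stood at 1.36, 1.91 and 2.31 FPKM in Ctrl and 1.75, 2.18, 2.08 and 1.83 FPKM in cKO. All 4 cKO values lay within the range of Ctrl, and both the lowest and the highest library were Ctrl libraries. The log2 difference was 0.074 (SE 0.17, 95% interval from -0.32 to 0.47, limma adjusted p = 0.923), and it was -0.039 after removal of the trend with gene length. Leaving out 1 library moved it between -0.087 and 0.21. Although low in FPKM, Egfr was read between 327 and 481 times in a library, since the gene model is 12844 bases long. It has the gene ID 13649 and lies on the plus strand of chromosome 11, from 16700153 to 16868158.

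Per length, the level of Erbb3 was between 31.3 and 51.3 times that of Egfr in the 7 libraries, and that of Erbb2 between 13.8 and 28.8 times. Ctrl replicate 1, with the lowest Egfr, gave the highest ratio of both. With the length of the longest protein-coding transcript in place of the deposited gene length, Erbb3 lay between 24.8 and 40.7 times Egfr. The level of Erbb3 was between 1.78 and 2.46 times that of Erbb2, with no separation of the genotypes. The fourth receptor, Erbb4, a receptor of neuregulins, had 0 reads in all 7 libraries, which allows a level of up to 0.00635 to 0.00885 FPKM by a floor of 3 reads per library. This limit covers counting error only.

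The ligands of Egfr are described next, beginning with those encoded side by side on chromosome 5. Ereg (from 91222476 to 91241508, gene ID 13874) and Areg (from 91287458 to 91296291, gene ID 11839) lie on the plus strand, and Btc (from 91505120 to 91550853, gene ID 12223) follows on the minus strand. Amphiregulin, the product of Areg, is a low-affinity ligand made by epithelium and by some immune cells. The 250 bases before its start are shown because Areg is the member known as a YAP target, and because its start has a recognisable core. They are the plus strand of chr5:91139349-91139598 in GRCm38.p6, a build other than that of the table, from RefSeq. Capitals mark a cyclic AMP response element (CRE), whose first base lies 61 bases before the start, and a TATA box, 31 bases before it.
Areg: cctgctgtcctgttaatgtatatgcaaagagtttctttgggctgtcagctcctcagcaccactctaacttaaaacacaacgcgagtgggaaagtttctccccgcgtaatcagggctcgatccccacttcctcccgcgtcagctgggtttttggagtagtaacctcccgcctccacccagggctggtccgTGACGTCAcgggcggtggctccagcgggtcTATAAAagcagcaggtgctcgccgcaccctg
Both strands were searched for the CRE letters TGACGTCA, the TATA letters TATAAA, the TEAD letters GGAATG and the AP-1 letters TGANTCA. These are held by 1.55%, 12.4%, 12.6% and 6.75% of 32851 RefSeq promoters of the same length. Neither the TEAD nor the AP-1 letters occur in this window.

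Areg stood at 6.91, 6.27 and 5.64 FPKM in Ctrl and 4.68, 6.93, 8.56 and 12.3 FPKM in cKO. The cKO group held both the lowest and the highest library, and the highest was replicate 4. The spread within cKO (8.12 ± 3.21 FPKM, SD, n = 4) was wider than in Ctrl (6.28 ± 0.634 FPKM, SD, n = 3), a difference in spread that was not tested. The log2 difference of the means was 0.27 (SE 0.27, 95% interval from -0.36 to 0.91, limma adjusted p = 0.784). It was 0.059 without cKO replicate 4 and 0.49 without cKO replicate 1, so the size of the difference rested on single cKO libraries. Between 101 and 208 reads in a library support these values.

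The order of the libraries by Areg followed that by mitochondrial share in 18 of the 21 pairs of libraries, and 3.03% of all genes tested followed it in at least as many. This comparison was chosen after the values had been seen, and the part of RNA quality in the level of Areg was not tested. The summed T cell markers ranged from 483 to 1162 FPKM in Ctrl and from 302 to 742 FPKM in cKO, and the summed mast cell markers between 2.78 and 47.9 FPKM and between 14.6 and 41.8 FPKM. All 9 T cell markers were detected, and of the 9 mast cell markers Tpsab1 and Cma1 were at 0 in every library. Their part in the level of Areg was not tested.

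Ereg encodes epiregulin, a low-affinity ligand like amphiregulin. It was the least abundant of the 10 genes, at 0.511, 0.562 and 1.15 FPKM in Ctrl and 0.694, 0.817, 1.38 and 1.51 FPKM in cKO. Ctrl replicate 3 lay above cKO replicates 1 and 2, so the groups overlap. The log2 difference was 0.37 (SE 0.27, 95% interval from -0.26 to 1.0, limma adjusted p = 0.710), on between 39 and 87 reads in a library.

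Betacellulin, the product of Btc, binds both Egfr and Erbb4. Btc stood at 1.07, 1.39 and 1.98 FPKM in Ctrl and 1.59, 2.0, 1.36 and 1.47 FPKM in cKO. The 2 highest libraries, Ctrl replicate 3 and cKO replicate 2, came from different groups. The log2 difference was 0.11 (SE 0.20, limma adjusted p = 0.903) and -0.10 with the GC trend removed. The 3 neighbours on chromosome 5 thus had different library orders, and Areg and Ereg ordered 15 of the 21 pairs of libraries alike.

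Hbegf, the heparin-binding ligand and an immediate early gene in many epithelial cells, was the member with the widest spread within groups. It stood at 2.99, 8.78 and 14.5 FPKM in Ctrl and 5.95, 3.32, 11.3 and 21.4 FPKM in cKO. The highest library was 7.15 times the lowest, and each group held both low and high libraries. The within-group SD on the log2 scale was 1.08, against 0.230 for the median gene, and 97.6% of genes tested had a smaller one. Hbegf was read between 133 and 708 times in a library. The log2 difference between genotypes was 0.18 (SE 0.66, 95% interval from -1.33 to 1.70, limma adjusted p = 0.953). It was -0.20 with array weights and moved between -0.40 and 0.65 as single libraries were omitted.

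The libraries with high Hbegf were those with high Fos and Dusp6. Fos, an immediate early transcription factor, stood at 37.2, 93.3 and 119 FPKM in Ctrl and 40.2, 33.9, 96.1 and 160 FPKM in cKO. Dusp6, a phosphatase induced by ERK signalling, stood at 16.4, 25.2 and 31.2 FPKM in Ctrl and 21.9, 19.3, 26.2 and 41.0 FPKM in cKO. Hbegf ordered 21 of 21 pairs of libraries as Dusp6 did and 20 of 21 as Fos did. At least as many pairs in the order of Dusp6 were found for 0.0919% of all genes tested, and in the order of Fos for 0.437%. Egr1, another immediate early gene, shared the order of Hbegf in 8 of the 21 pairs. Errfi1, a feedback inhibitor of Egfr, stood at 9.67, 30.2 and 22.9 FPKM in Ctrl and 11.2, 14.9, 26.1 and 33.7 FPKM in cKO, low in the same 3 libraries in which Hbegf was lowest. These genes were compared with Hbegf after their values had been seen, and the libraries they share make this a description.

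**Figure D2:**
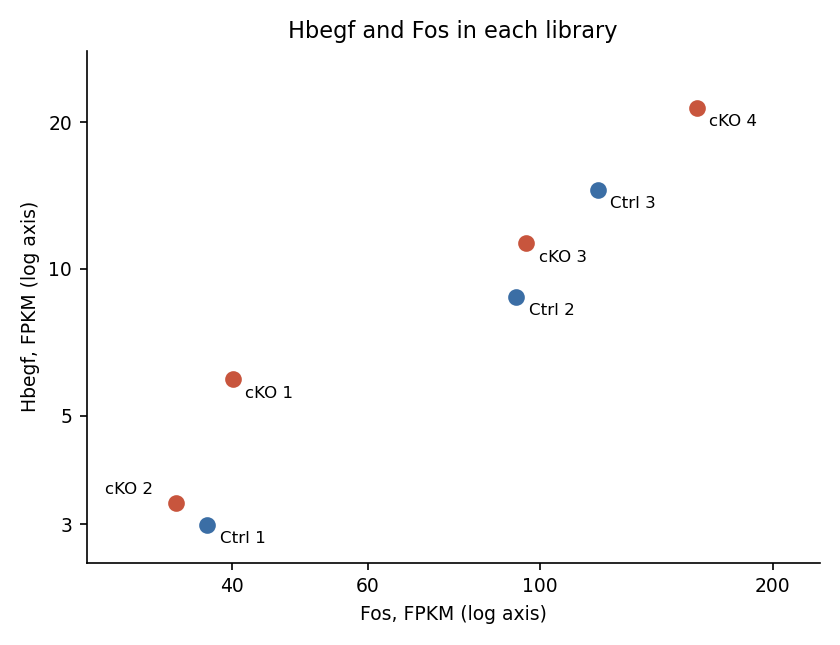
Hbegf against Fos in each of the 7 libraries (FPKM, both axes logarithmic), Ctrl libraries in blue and cKO libraries in red. Libraries run from Ctrl 1 and cKO 2 at the lower left, at about 3 FPKM of Hbegf, to cKO 4 at the upper right, at 21.4 FPKM, and both genotypes lie along the whole course.

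Tgfa, which encodes transforming growth factor alpha, a ligand made by the gut epithelium, varied little. It stood at 4.71, 6.16 and 6.05 FPKM in Ctrl and 6.06, 5.71, 6.70 and 7.40 FPKM in cKO. Ctrl replicate 1 was the lowest library, and the other Ctrl libraries lay among those of cKO. The log2 difference was 0.19 (SE 0.14, 95% interval from -0.13 to 0.50, limma adjusted p = 0.709). Tgfa (gene ID 21802) lies on the plus strand of chromosome 6, from 86172020 to 86252726, and was read between 434 and 511 times in a library.

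Other ligands of the family were at or near the limit of detection. Egf itself had between 1 and 45 reads in a library, at 0.182, 0.112 and 0.0257 FPKM in Ctrl and 0.246, 0.556, 0.0717 and 0.0150 FPKM in cKO (p = 0.571 in an exact permutation test, 2-sided). Epgn, on the same stretch of chromosome 5 as Areg and Ereg, had at most 5 reads, Nrg2 at most 3 and Nrg1 at most 1, and Nrg3 had 0 in all libraries, which allows up to 0.0175 to 0.0244 FPKM. The neuregulin that was measured was Nrg4, a ligand of Erbb4, at 1.49, 2.46 and 2.92 FPKM in Ctrl and 1.73, 3.29, 2.10 and 2.92 FPKM in cKO. Its log2 difference was 0.11 (SE 0.25, limma adjusted p = 0.919), between -0.11 and 0.28 when 1 library was left out. Its receptor Erbb4 was the one listed at 0 reads.

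Lrig1 spans the membrane and promotes the breakdown of ErbB receptors. It stood at 4.21, 3.10 and 3.93 FPKM in Ctrl and 4.81, 4.98, 2.60 and 2.90 FPKM in cKO. In cKO replicates 1 and 2 it was higher than in any Ctrl library, and in cKO replicates 3 and 4 lower than in any, so the cKO group fell into 2 pairs around Ctrl. The log2 difference between the means was -0.013 (SE 0.23, 95% interval from -0.55 to 0.53, limma adjusted p = 0.991), and it was 0.21 with array weights and 0.12 after removal of the GC trend. A mean difference near 0 thus stood beside a 1.91-fold range between libraries.

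Of 8 markers of crypt base stem cells, 5 showed the same 2 pairs around Ctrl: Lgr5, Olfm4, Smoc2, Axin2 and Rnf43. The other 3, Ascl2, Znrf3 and Tnfrsf19, did not, with at least 1 cKO library out of place. The summed level of the 8 markers, of which Olfm4 made up 85.7%, was 435, 355 and 387 FPKM in Ctrl and 566, 526, 344 and 248 FPKM in cKO. Lrig1 and this sum ordered 19 of the 21 pairs of libraries alike, and 2.5% of genes tested followed the sum in at least as many. Lgr5, the receptor that defines these cells, ranged from 2.54 to 2.70 FPKM in Ctrl and from 1.46 to 4.10 FPKM in cKO, lowest in cKO replicate 4. With the mitochondrial share Lrig1 shared the order in 4 of the 21 pairs. The comparisons were chosen after the values had been seen, and the part of the share of crypt cells in the level of Lrig1 was not tested. Lrig1 (gene ID 16206) lies on the minus strand of chromosome 6, from 94581510 to 94677326.

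**Figure D3:**
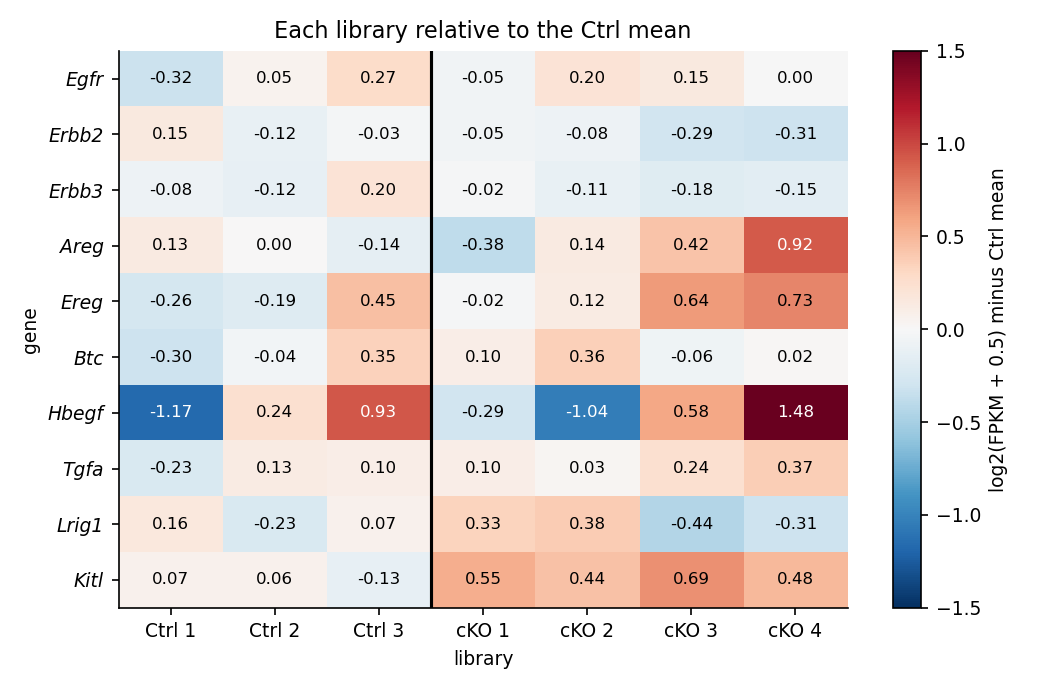
Each gene's level in each library as its difference from the gene's mean over the 3 Ctrl libraries, on the scale log2(FPKM + 0.5). Kitl lies between -0.13 and 0.066 in the Ctrl libraries and between 0.44 and 0.69 in the cKO libraries. Lrig1 is above the Ctrl mean in cKO 1 and 2 and below it in cKO 3 and 4, and Hbegf has the widest range.

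Kitl had the largest log2 difference of the members on the scale log2(FPKM + 0.5), whereas its ratio of means, 1.48, was close to the 1.49 of the low gene Ereg. With a pseudocount of 0.1 the log2 differences were 0.56 for Kitl and 0.53 for Ereg, and with voom, or without Ctrl replicate 3, that of Ereg was the larger, at 0.58 and 0.59 against 0.57 and 0.48. Kitl stood at 8.78, 8.74 and 7.63 FPKM in Ctrl and 12.5, 11.6, 13.8 and 11.9 FPKM in cKO. Every cKO library lay above every Ctrl library. The log2 difference was 0.54 (SE 0.11), with a limma adjusted p of 0.409, so the call rule was not passed. Kitl was among the members chosen with this value known. Its within-group SD on the log2 scale was 0.108, and 8.62% of genes tested had a smaller one. Between 714 and 1280 reads in a library support it.

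Under the 21 alternative settings the log2 difference of Kitl lay between 0.38 and 0.62 and its limma adjusted p between 0.269 and 0.997. With single libraries omitted, it was 0.48 to 0.57. The lowest value, 0.38, came when the GC trend was taken out of the libraries; 42.1% of the bases of Kitl transcripts are G or C, against a median of 50.2% over genes tested.

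Kitl (gene ID 17311) lies on the plus strand of chromosome 10, from 99851477 to 99936278. The 250 bases before its start are shown because it is the member whose groups did not overlap, and they are the plus strand of chr10:100015571-100015820 in GRCm38.p6, from RefSeq. Capitals mark a TATA box whose first base lies 25 bases before the start.
Kitl: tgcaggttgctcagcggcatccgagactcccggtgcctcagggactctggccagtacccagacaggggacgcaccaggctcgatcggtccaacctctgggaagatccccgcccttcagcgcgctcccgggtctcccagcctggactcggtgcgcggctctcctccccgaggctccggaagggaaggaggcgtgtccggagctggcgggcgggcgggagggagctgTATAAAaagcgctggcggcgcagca
The window is 69.2% G or C and holds 23 CpG, against medians of 52.4% and 6 over all promoters of the table. No TEAD, AP-1 or CRE letters occur in it. RefSeq promoters were matched for 7 of the 10 members, and among the others the TEAD letters occur in that of Erbb2, 88 bases before its start, while none of the 4 motifs occurs in those of Btc, Tgfa, Lrig1 and Egfr.

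Kit, the receptor, overlapped between the groups. It stood at 3.41, 3.44 and 3.67 FPKM in Ctrl and 3.42, 4.5, 4.36 and 2.43 FPKM in cKO, with a log2 difference of 0.029 (SE 0.19, limma adjusted p = 0.977). Per length, Kitl was between 2.08 and 2.58 times Kit in Ctrl and between 2.57 and 4.90 times Kit in cKO, so the ratios of the groups overlapped. Interstitial cells of Cajal also carry Kit, and their markers and those of smooth muscle ranged in sum from 0.756 to 0.989 FPKM in Ctrl and from 0.313 to 0.548 FPKM in cKO, with Ano1 leading. Fibroblasts are a known source of Kit ligand. Their markers ranged in sum from 6.13 to 18.4 FPKM in Ctrl and from 7.01 to 20.6 FPKM in cKO, of which Vim made up 73.5%, while Dcn reached 6.25 FPKM, Col1a1 0.333 FPKM and Pdgfra 0.0266 FPKM. This sum was above the level of Kitl in 3 of the 7 libraries. Endothelial markers summed to at most 0.756 FPKM in Ctrl and 0.982 FPKM in cKO. The part of these cells in the level of Kitl was not tested.

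Genes with the profile most like that of Kitl over the 7 libraries were AI597479, Mmgt1, Eif3j1 and Mid2. Likeness was measured as the root mean square distance between profiles on the log2 scale, each centred on its mean. The search covered 10439 genes that averaged at least 1 FPKM, without the members and without genes that had a predicted name or none. The distances were 0.058 for AI597479, 0.073 for Mmgt1, 0.078 for Eif3j1 and 0.080 for Mid2, against a median of 0.35 over all genes searched. Mid2 stood at 2.59, 2.08 and 1.84 FPKM in Ctrl and 3.22, 3.20, 3.71 and 3.34 FPKM in cKO. Eif3j1, a subunit of translation initiation factor 3, stood at 11.6 ± 1.70 FPKM (SD, n = 3) in Ctrl and 16.4 ± 1.02 FPKM (SD, n = 4) in cKO. All 4 genes were higher in every cKO library than in every Ctrl library, which follows in part from the choice of genes like Kitl.

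The genes most like Egfr were Tstd2, Ncor1, Pcf11 and Khdc4, at distances of 0.054, 0.056, 0.066 and 0.067, against a median of 0.29. Ncor1, a nuclear receptor co-repressor, stood at 12.7, 17.1 and 19.7 FPKM in Ctrl and 17.2, 19.0, 18.6 and 17.8 FPKM in cKO. As with Egfr, its lowest and highest libraries were both in Ctrl, and the groups overlapped.

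**Figure D4:**
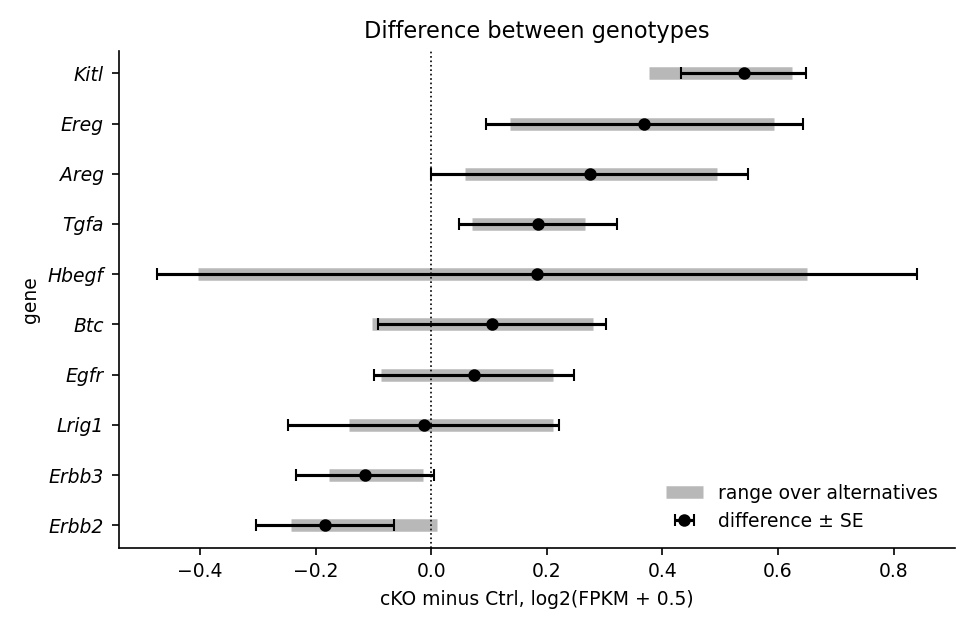
Difference cKO minus Ctrl of each gene on the scale log2(FPKM + 0.5) with its SE (points and lines) and, in grey, the range of the difference over the 21 alternative settings. Kitl has the largest difference, 0.54 (SE 0.11), and Hbegf the widest SE, 0.66. The 95% intervals are not drawn. That of Kitl alone lies above 0 and, as Kitl was chosen with this value known, is a description.

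Ordered by mean level over the 7 libraries, the genes were Erbb3 (70.8 FPKM), Erbb2 (33.0), Kitl (10.7), Hbegf (9.75), Areg (7.33), Tgfa (6.11), Lrig1 (3.79), Egfr (1.92), Btc (1.55) and Ereg (0.947). Neighbours whose ranges over libraries did not overlap were Erbb3 and Erbb2, Erbb2 and Kitl, and Lrig1 and Egfr. All other neighbours overlapped. Of the 10 pairs among the 5 ligands of Egfr, 6 had ranges that did not overlap: Hbegf, Areg and Tgfa each lay above Btc and Ereg in their whole range. Hbegf, Areg and Tgfa overlapped among themselves, as did Btc and Ereg. The place of Lrig1 depends on the length used, because the deposited length of 14487 bases is longer than its longest protein-coding transcript in GENCODE M21, of 4951 bases. With that length Lrig1 came to 11.1 FPKM and to the third place, with a range that overlaps that of Kitl.

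The genes around the receptors were taken from lists of pathway members, 68 in all, of which 58 could be tested. None of them was called, under the settings reported or under any alternative. The enzymes and cofactors that release the ligands gave 3 of 6 differences above 0, with a median of 0.04. Adam10, a protease that sheds Btc and EGF, stood at 21.7, 22.2 and 20.2 FPKM in Ctrl and 26.1, 24.0, 27.1 and 26 FPKM in cKO. All cKO libraries were above all Ctrl libraries, with a log2 difference of 0.26 (SE 0.096, limma adjusted p = 0.524). Adam17, which sheds Areg, Ereg, Hbegf and Tgfa, stood at 6.97 ± 0.477 and 7.78 ± 0.533 FPKM (SD, n = 3 and n = 4), and its groups overlapped. The Adam17 cofactors Frmd8 and Rhbdf1 had log2 differences of -0.082 and -0.059, which came to 0.10 and 0.16 once the GC trend had been removed.

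Among inhibitors of ErbB signalling, 11 of the 14 tested had differences above 0, with a median of 0.09, and 0 of them had an unadjusted p under 0.05. Those with the smallest p in each direction were Ptpn2 and Socs4, with log2 differences of 0.26 and 0.30, and Cblc and Ptpn1, with -0.25 and -0.16 (limma adjusted p between 0.596 and 0.685). Ptpn1 and Ptpn2 are phosphatases, Cblc is a ubiquitin ligase and Socs4 is an adaptor of receptor breakdown.

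Among the adaptors and kinases of the RAS-MAPK and PI3 kinase cascade, 15 of 25 had differences above 0, with a median of 0.11. The unadjusted p was under 0.05 for 6 genes higher and 0 lower in cKO, against 4.24% and 4.73% of all genes tested, and libraries did not overlap for 6 higher and 0 lower, against 5.62% and 4.51% of all genes tested. The count of 6 higher at an unadjusted p under 0.05 became 2 after removal of the GC trend and 2 without Ctrl replicate 3. With replicate number as a block, a fit that also left out cKO replicate 4, it was 2 higher and 1 lower. With only cKO replicate 4 left out it was 4 higher and 1 lower. Rasa1, a GTPase-activating protein that switches RAS off, stood at 4.40, 5.05 and 4.73 FPKM in Ctrl and 6.04, 7.21, 7.43 and 7.71 FPKM in cKO. Braf, a kinase that acts below RAS, stood at 1.18 ± 0.0655 FPKM (SD, n = 3) in Ctrl and 1.79 ± 0.227 FPKM (SD, n = 4) in cKO. Neither passed, with log2 differences of 0.54 (SE 0.12, limma adjusted p = 0.446) for Rasa1 and 0.44 (SE 0.15, limma adjusted p = 0.511) for Braf. Map2k2 and Akt2, with the smallest p among those lower in cKO, had log2 differences of -0.35 and -0.18.

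Genes that report MAP kinase activity were divided. Of 14 tested, 6 had differences above 0, with a median of -0.02, and 0 had an unadjusted p under 0.05. Those with the smallest p were Spred1 and Dusp4, with log2 differences of 0.23 and 0.15, and Etv5 and Epha2, with -0.22 and -0.11. Etv5, a transcription factor of the ETS family, stood at 0.524, 0.581 and 0.83 FPKM in Ctrl and 0.709, 0.724, 0.280 and 0.277 FPKM in cKO, low in cKO replicates 3 and 4 as Lrig1 was. Spred1, an inhibitor of RAS signalling, stood at 2.01, 2.16 and 2.03 FPKM in Ctrl and 3.06, 3.12, 2.28 and 1.79 FPKM in cKO, again with replicates 1 and 2 high.

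**Figure D5:**
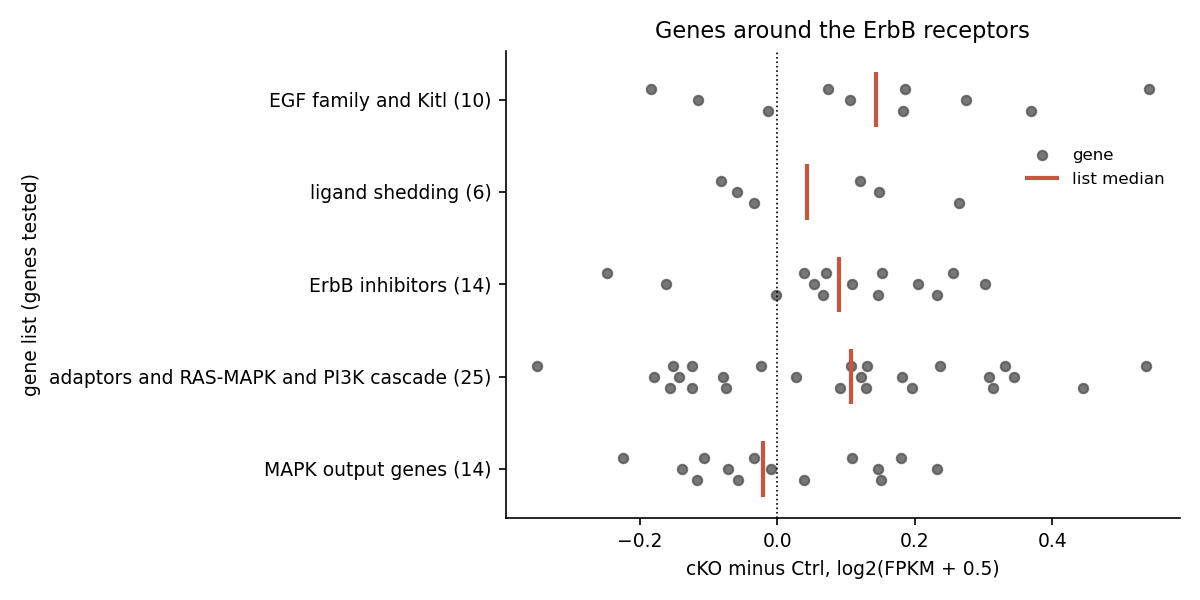
Difference cKO minus Ctrl on the scale log2(FPKM + 0.5) of each tested gene (points) in the 10 genes described here and in 4 lists of pathway genes, with the median of each list as a red line. Medians lie between -0.02 and 0.14, and the points lie on both sides of 0 in each list.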

How the data were processed

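RNA-seq of 3 Ctrl and 4 cKO libraries was analysed. The authors deposited 1 table of FPKM values for 46671 genes, with gene lengths and coordinates. Reads were aligned with HISAT2, per the submitters' processing notes; its version and the counting program, strand setting and annotation were not given in the sources used here. Deposited FPKM gave whole reads in 100% of values (within 0.01), and the library sizes behind them were between 0.891 and 1.10 times the recovered totals.

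Members and lists were chosen with earlier results of these data known. Genes averaging at least 0.5 FPKM were compared on log2(FPKM + 0.5) with limma 3.58.1 in R 4.3.3 (lmFit, eBayes with trend, 2-sided, Benjamini-Hochberg adjustment over 13057 genes, threshold 0.05), without covariates. The script was tested on simulated data. Named were all members and Stk24, the 2 genes with the smallest p in each direction of each pathway list, and the 4 genes most like Kitl and Egfr in profile. Fos, Dusp6, Egr1, Errfi1 and individual cell type markers were named after their values had been seen. Alternatives were other pseudocounts, filters, scalings and variance models, voom on recovered reads, the replicate block and leaving out each library. The replicate block was fitted to the replicate numbers found in both groups, so cKO replicate 4 was left out of it. Removal of the GC trend and transcript lengths were added after seeing the data. GC content came from GENCODE M21 (GRCm38) by symbol, for 93.5% of genes tested. Replicate numbers did not pair the libraries.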

Additional observations from a re-analysis of the deposited data

Results flagged for a closer look

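Each group of 4 cKO libraries was checked for a library far from the rest, in 48 genes and sums, and 2 were found, where chance gives about 1 in 20. Ptpn1 stood at 5.53 FPKM in cKO replicate 4, against 4.56 to 4.66 FPKM in the other cKO libraries. Akt2 stood at 7.09 FPKM in cKO replicate 1, against 6.25 to 6.34 FPKM in the others.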

How the results depend on the processing

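Of 209 values of the members under 21 alternatives, 0 passed the threshold. Erbb3, Areg, Ereg, Tgfa and Kitl kept their sign in each (Ereg was not tested at a mean of at least 1 FPKM). The count of called genes, 4 as reported, was 1 with a pseudocount of 0.1, with no filter, with a mean of at least 1 FPKM and with the length trend removed, 2 with the GC trend removed and with voom, 0 with the replicate block, and between 1 and 7 when 1 library was left out. The count at an unadjusted p under 0.05 lay between 617 with the GC trend removed and 1702 with array weights. Log2 differences changed sign with the length trend removed for Egfr (-0.039) and Kit (-0.0081). With the GC trend removed they did so for Erbb2 (0.0095), Btc (-0.10), Lrig1 (0.12), Kit (-0.021), Frmd8 (0.10), Rhbdf1 (0.16) and Epha2 (0.062). With array weights they did so for Hbegf (-0.20), Lrig1 (0.21) and Rhbdf1 (0.094), and on the TPM scale for Lrig1 (0.068), Frmd8 (0.0050) and Rhbdf1 (0.016). Same-numbered libraries of the groups did not deviate together (r = 0.12, -0.087 and -0.13). The replicate block gave -0.25 for Hbegf, 0.087 for Lrig1 and a limma adjusted p of 0.132 for Stk24. That fit also left out cKO replicate 4, which has no Ctrl library of its number, so these values are not those of blocking alone. For the RAS-MAPK and PI3 kinase cascade the median log2 difference was 0.0146 with the block and 0.0146 with only cKO replicate 4 left out. When 1 library was left out, the difference lay between -0.087 and 0.21 for Egfr, -0.047 and 0.28 for Btc, -0.40 and 0.65 for Hbegf, -0.14 and 0.13 for Lrig1, -0.11 and 0.28 for Nrg4, -0.068 and 0.19 for Kit, -0.23 and 0.026 for Frmd8, and -0.18 and 0.044 for Rhbdf1. The cause was not tested. Depth limits Ereg, read 39 to 87 times in a library, and the ligands under 50 reads.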
